A study of Mus musculus with 6 samples.

Results

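Cystine uptake and glutathione redox genes are described here through 10 genes, Slc7a11, Gclc, Gclm, Gss, Gsr, Gpx2, Gpx4, Nqo1, Txnrd1 and Srxn1, of 19933 genes measured. They were picked by gene symbol, as the genes that bring cystine into the cell, build and recycle glutathione and use it or thioredoxin against peroxides, and their differences between the groups of these arrays were known when they were picked. Those differences are therefore given as a description, and no count of these genes past a threshold is used as support. The 3 arrays labelled transgenic came from mice that carried R26-M2rtTA, the doxycycline-dependent activator M2rtTA expressed from the Rosa26 locus, together with TRE-MSI2, an MSI2 transgene that this activator switches on. The 3 control arrays came from mice with R26-M2rtTA alone, so the activator and the drug were common to both groups, and all 6 mice drank doxycycline for 24 hours. RNA was taken from total epithelial cells of the jejunum, and neither the age of the mice nor the cell types that switch on the transgene are given in the sources used here. MSI2 is an RNA-binding protein of the Musashi family.

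Cells import cystine, the oxidised pair of cysteines, in exchange for glutamate, and reduce it to cysteine. Glutamate-cysteine ligase joins cysteine to glutamate and glutathione synthetase then adds glycine, giving glutathione, the main small thiol that keeps the cytosol reduced. Peroxidases spend glutathione on peroxides, glutathione reductase restores it with NADPH, and the thioredoxin and peroxiredoxin system works beside it. Many of these genes are known targets of NRF2, a transcription factor that KEAP1 holds low, and in the intestine the system faces oxidants from food, microbes and the epithelium's own oxidases.

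Values are log2 expression per probe set, so 1 unit is a doubling, and levels of different genes cannot be compared with each other. Array medians lay between 6.42 and 6.46. Xist in males and Y-linked genes in females, transcripts that those arrays should lack, read between 4.07 and 5.06, which serves as a guide to unspecific signal. Msi2 did not separate the labels, with 11.23, 10.58 and 11.44 in the arrays labelled transgenic, against 11.30, 9.53 and 9.32 in the control arrays 1, 2 and 3 (limma, adjusted p = 0.257). Msi1 did, with 13.44, 12.82 and 13.53 in the arrays labelled transgenic, against 7.20, 7.97 and 7.62 in the controls (log2 difference 5.66, limma, adjusted p = 0.000818). Whether the Msi1 probe set reads the transgene, which the labels name MSI2, was not tested. Since Msi2 in control replicate 1 goes against its label, transgenic and control below stand for the labels of the arrays, and every direction rests on them. Control replicate 1 stood apart, with correlations of 0.981 and 0.982 over all probe sets with the other controls, which correlated with each other by 0.996. Epithelial identity was present in both groups, Epcam reading 12.60 to 12.87 in transgenic and 12.71 to 12.81 in control arrays.

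Of the 10 genes, Slc7a11 and Gclc stood furthest apart between the groups, Gss, Gsr and Txnrd1 were higher in every transgenic array than in any control array by smaller amounts, and the groups overlapped for Gclm, Gpx2, Gpx4, Nqo1 and Srxn1. The mean was higher in transgenic arrays for 7 genes and lower for 3. Thus 5 of 10 had groups that did not overlap, all 5 higher, and none lower, where 37% of all genes did not overlap, 19.5% with transgenic higher and 17.5% with transgenic lower. In the fit over all genes 3 of the 10, Slc7a11, Gclc and Gss, were past an adjusted p of 0.05, as were 18.6% of all genes. Because the genes were chosen with this contrast in view, nothing is read from these shares. Their median log2 difference was 0.30, against 0.02 over all genes. The count differed between fits, and so did that over all genes, which was 3710 with all 6 arrays. Without control replicate 1, 6 of the 10 and 5542 of all genes were past the threshold. The added calls were Gclm and Gpx4, both lower in transgenic arrays, and Nqo1, higher. In the fit blocked on replicate number 4 of the 10 and 5139 of all genes passed, Gpx4, again lower, being the added call. The count was 2 of the 10 without control replicate 2, control replicate 3 or transgenic replicate 1, where 976, 952 and 1370 of all genes passed. Without transgenic replicate 3 it stayed at 3, with 1074 of all genes, and with sex as a block at 3, with 2159. Slc7a11 and Gclc passed in every fit. Gss lost its call without control replicate 2, control replicate 3, transgenic replicate 1 or transgenic replicate 3, and in the last of these Gsr passed.

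**Figure D1:**
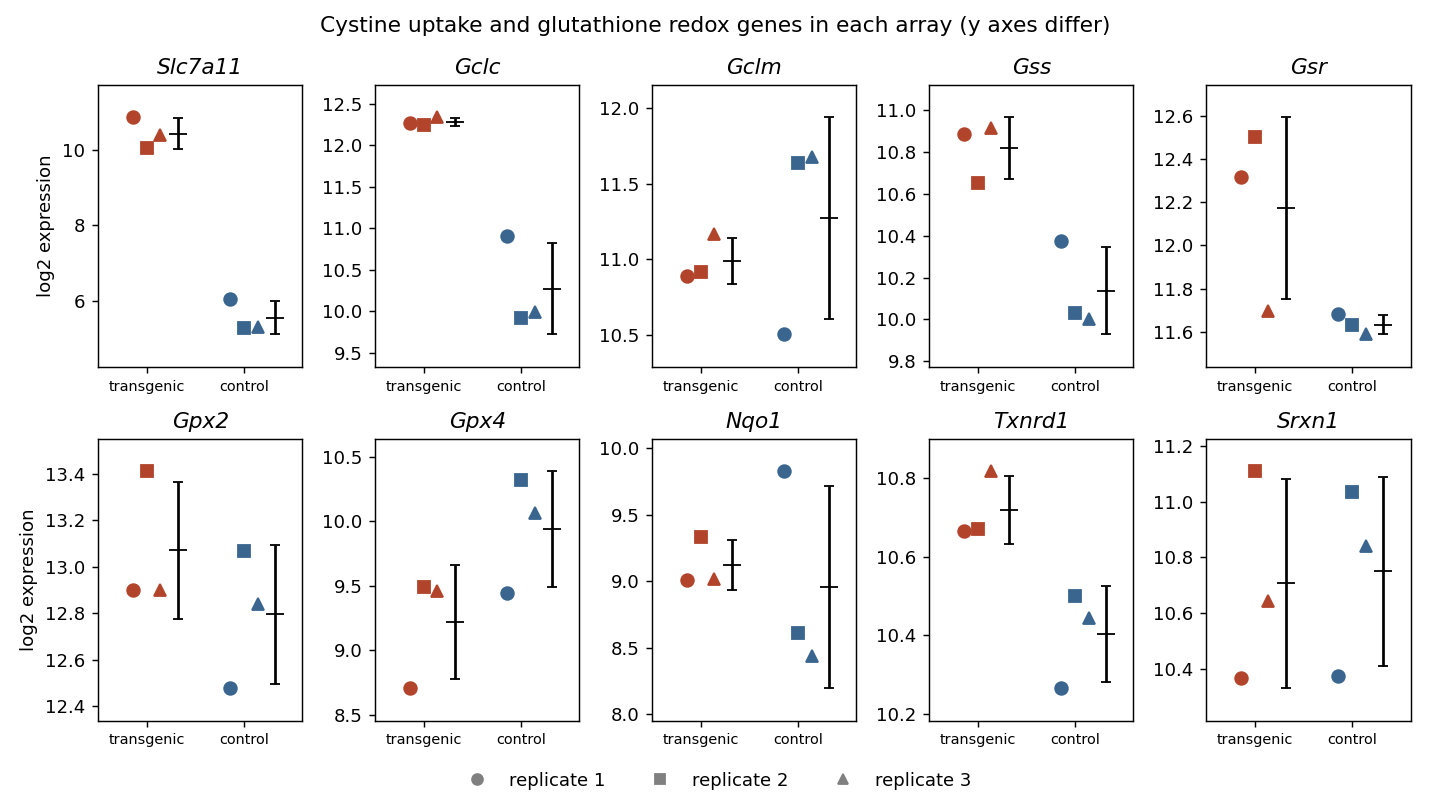
Log2 expression (y axis, a different range in each panel) of the 10 genes in the 3 transgenic (red) and 3 control (blue) arrays, with the marker shape giving the replicate number and the black bar the mean ± SD (n = 3 each). Slc7a11 reads 10.03 to 10.85 in transgenic and 5.28 to 6.07 in control arrays, while Srxn1 overlaps fully and control replicate 1 lies away from the other controls for Gclc, Gclm and Nqo1.

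Slc7a11 encodes the light chain of the cystine-glutamate exchanger, the entry point of the pathway. It read 10.85, 10.03 and 10.40 in the transgenic arrays 1, 2 and 3, against 6.07, 5.28 and 5.33 in the control arrays. Every transgenic array lay at least 3.97 log2 units above every control array, and control replicates 2 and 3 were just above the range of absent transcripts. The means were 10.43 ± 0.41 in transgenic and 5.56 ± 0.44 in control arrays (SD, n = 3 each), a log2 difference of 4.87 (SE 0.29) or 29.3-fold, the 9th highest of 19933 genes. With controls this dim, the size of the fold is uncertain. Its partner Slc3a2, the heavy chain that carries several amino acid transporters to the membrane, read 12.89, 13.03 and 13.03 in transgenic and 12.84, 13.00 and 13.06 in control arrays. That log2 difference of 0.01 (SE 0.09) did not pass in limma (adjusted p = 0.936).

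In mice, ATF4, the transcription factor of amino acid shortage, is known to act on Slc7a11 through amino acid response elements close to its start, and AP-1 and NRF2 factors act on Srxn1. These are examples and not a full list of the factors of either gene. Promoter windows of 250 bases before to 50 after a gene start (RefSeq, GRCm38.p6) were available for 8 of the 10 genes, with 13 windows in all, and Gclc and Gsr had no entry. They were searched on both strands for TGATGNAA, the core of an amino acid response element, for TGACNNNGC, a form of the core of an antioxidant response element that NRF2 binds, and for TGANTCA, an AP-1 site. Other forms of the antioxidant core were not searched. The last motif can overlap the antioxidant core. The 250 bases before the start are shown for Slc7a11 (chr3:50443614-50443863, minus strand), which had the largest difference, and for Srxn1 (chr2:152105274-152105523, plus strand), whose groups overlapped, with matches to any of these motifs in capitals.
Slc7a11: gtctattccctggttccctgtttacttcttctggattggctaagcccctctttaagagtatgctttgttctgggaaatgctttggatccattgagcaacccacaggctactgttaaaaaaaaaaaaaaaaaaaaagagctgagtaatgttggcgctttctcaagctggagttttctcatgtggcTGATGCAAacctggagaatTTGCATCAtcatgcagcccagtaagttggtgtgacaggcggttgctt
Srxn1: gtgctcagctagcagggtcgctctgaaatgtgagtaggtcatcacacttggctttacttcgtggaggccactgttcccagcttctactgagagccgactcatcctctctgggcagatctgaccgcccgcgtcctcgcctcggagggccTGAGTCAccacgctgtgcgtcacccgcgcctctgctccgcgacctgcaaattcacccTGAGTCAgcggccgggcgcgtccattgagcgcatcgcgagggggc
The Slc7a11 window held 2 matches to TGATGNAA, on opposite strands, the first beginning 66 and the second 47 bases before the start. A match to this motif occurs in 3.97% of all 32851 promoter windows, and 2 or more in 0.0700% of them. Of the 8 genes with a window, only Slc7a11 had it. The Srxn1 window held 2 matches to TGANTCA, 102 and 45 bases before the start, and a match to TGACNNNGC within the 50 bases after it. The site 45 bases before the start reads TGAGTCAGC, which departs from TGACNNNGC in a single letter and was not counted as an antioxidant core. AP-1 matches occur in 7.81% of all windows, and 2 or more in 0.460%. The searched form of the antioxidant core was found in windows of Gclm, Srxn1 and Txnrd1 and in 12.4% of all windows. A match is a run of letters and says nothing on its own about binding. Sites outside these windows were not searched, so a window without a motif does not show that the gene lacks it. Which factors acted on Slc7a11 or Srxn1 in these mice was not tested.

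Glutathione synthesis followed, with its genes moving unequally. Gclc, the catalytic subunit of glutamate-cysteine ligase, read 12.26, 12.25 and 12.33 in transgenic arrays, against 10.90, 9.92 and 9.99 in control arrays. The transgenic values lay close together and above all controls, of which replicate 1 was the highest. The means were 12.28 ± 0.05 in transgenic and 10.27 ± 0.55 in control arrays (SD, n = 3 each), a log2 difference of 2.01 (SE 0.26) or 4.03-fold.

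Gclm, the modifier subunit that makes the catalytic subunit more active at cellular glutathione levels, did not follow it. It read 10.89, 10.91 and 11.16 in transgenic and 10.50, 11.64 and 11.67 in control arrays, so that control replicate 1 lay below and the other controls above all transgenic values. The log2 difference was -0.28 (SE 0.32), and -0.67 without control replicate 1. The log2 difference between the Gclc and Gclm probe sets within an array was 1.37, 1.33 and 1.17 in transgenic arrays, against 0.40, -1.72 and -1.68 in control arrays. Its zero has no meaning, since the probe sets differ, but the array groups did not overlap. The catalytic subunit was thus higher relative to the modifier by 2.29 log2 units, and by 2.99 without control replicate 1. This shows unequal change of the transcripts and not which of them stayed level.

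Gss, the synthetase of the last step, read 10.89, 10.65 and 10.92 in transgenic arrays and 10.38, 10.03 and 10.003 in control arrays. All transgenic values were higher, by at least 0.27, and the log2 difference was 0.68 (SE 0.13) or 1.604-fold.

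Among the genes that recycle or use glutathione, Gsr alone had groups that did not overlap. Gsr, the reductase that restores glutathione from its disulfide, read 12.32, 12.50 and 11.70 in transgenic and 11.68, 11.63 and 11.59 in control arrays. Transgenic replicate 3 lay only 0.016 above the highest control, and the log2 difference of 0.54 (SE 0.21) was 0.78 without that array and 0.37 without transgenic replicate 2. Gpx2, the glutathione peroxidase of the gastrointestinal epithelium, read 12.90, 13.41 and 12.90 in transgenic and 12.48, 13.07 and 12.84 in control arrays. Its groups overlapped, with a log2 difference of 0.28 (SE 0.20), and 0.12 without control replicate 1.

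Gpx4, which reduces peroxides of membrane lipids and is the peroxidase that guards cells against ferroptosis, had the lowest difference of the 10. It read 8.71, 9.49 and 9.46 in transgenic and 9.44, 10.32 and 10.06 in control arrays. The lowest control, replicate 1, lay 0.044 below the highest transgenic array. The log2 difference was -0.72 (SE 0.30) and ranged from -0.97 without control replicate 1 to -0.47 without transgenic replicate 1. The other 9 genes had 1 probe set each, and the second probe set of Gpx4 gave -0.67 and nearly the same values, 8.74 to 9.48 in transgenic and 9.44 to 10.19 in control arrays. Whether these probe sets share probes was not tested.

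Nqo1, the quinone reductase often read as a marker of NRF2 activity, was at 9.01, 9.34 and 9.02 in transgenic and at 9.83, 8.61 and 8.43 in control arrays. Control replicate 1 was the highest of all 6 arrays and the other controls the lowest. The log2 difference was 0.16 (SE 0.37), and 0.60 without control replicate 1, but -0.10 without control replicate 3. Txnrd1, the cytosolic thioredoxin reductase and like Gpx2 and Gpx4 a selenoprotein, read 10.67, 10.67 and 10.82 in transgenic and 10.27, 10.50 and 10.44 in control arrays. The groups were 0.17 apart, and the log2 difference was 0.32 (SE 0.09). Srxn1, the sulfiredoxin that repairs overoxidised peroxiredoxins, read 10.37, 11.11 and 10.64 in transgenic and 10.37, 11.04 and 10.84 in control arrays. Its groups overlapped throughout, with a log2 difference of -0.04 (SE 0.24), and between -0.24 and 0.13 with 1 array left out.

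**Figure D2:**
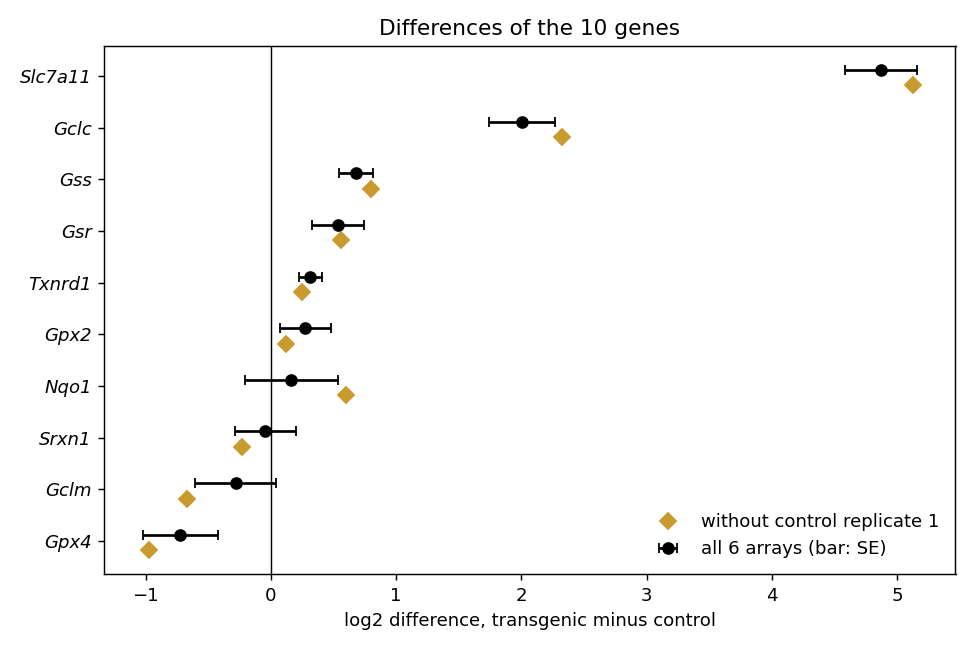
Log2 difference of each of the 10 genes, transgenic minus control (x axis), from all 6 arrays (black, bar: standard error of the fit) and without control replicate 1 (yellow diamonds). Slc7a11 at 4.87 and Gclc at 2.01 lie far from 0, and leaving out control replicate 1 moves Gclm to -0.67, Gpx4 to -0.97 and Nqo1 to 0.60.

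The 10 genes also differed among the controls. Control replicate 1 departed from the mean of the other controls by 1.31 for Nqo1, 0.95 for Gclc, 0.76 for Slc7a11 and 0.36 for Gss, and by -1.15 for Gclm, -0.74 for Gpx4, -0.56 for Srxn1 and -0.47 for Gpx2. The size of this departure had a median of 0.65 over the 10 genes, against 0.17 over all genes. For 8 of the 10 genes control replicate 1 departed toward the transgenic mean, as it did for 69.0% of all genes, and for 5 of the 10 the departure was larger than the difference between the groups, as for 46.8% of all genes.

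Over the 6 arrays, the genes whose values followed those of Slc7a11 most closely were Gcnt2 (Pearson r = 0.999), which branches glycan chains, Arf2 (0.998), a small GTPase of membrane traffic, and Galnt3 (0.998), which starts mucin-type glycans. Next were Btc (0.997), an EGF receptor ligand, and Tnfrsf12a (0.997), the receptor of the cytokine TWEAK. Among the 10 genes, Gclc followed Slc7a11 with r = 0.975, Gss with 0.959, Txnrd1 with 0.826 and Gsr with 0.729, while Gpx4 ran against it with -0.792. These values describe 6 arrays in 2 groups, which any gene with separated groups resembles, and 775 other genes had an r above 0.95.

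Other genes of glutathione and redox metabolism were grouped in 11 lists by their roles. Of 138 genes measured, 21 rose and 35 fell in transgenic arrays in limma at an adjusted p under 0.05, together 40.6% of them, where 18.6% of all genes passed, 8.97% higher and 9.65% lower. The lists were chosen with earlier results of these data known, so nothing is read from the difference between these shares. Their median log2 difference was -0.07. A set of 7 genes stands in 2 lists, and 8 listed genes, G6pdx and Ggt1 among them, were not analysed here.

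**Figure D3:**
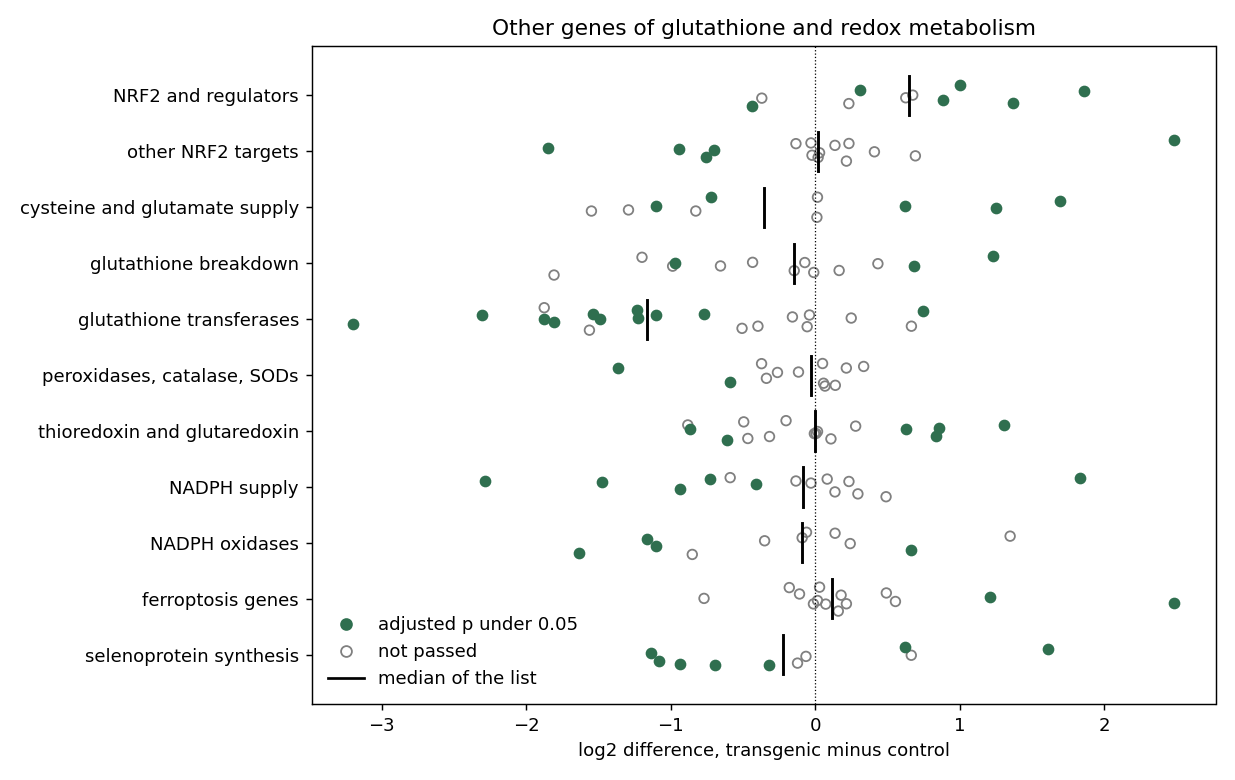
Log2 difference, transgenic minus control (x axis), of every measured gene in the 11 lists (rows), filled green where the adjusted p in limma was under 0.05 and open where it was not, with a black line at the median of each list. The glutathione transferases have the lowest median, -1.17, and NRF2 with its regulators the highest, 0.65.

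The transcript of NRF2 was not higher, while those of several of its partners and regulators were. Protein was not measured on these arrays. Nfe2l2, which encodes NRF2, read 11.67, 11.35 and 11.82 in transgenic and 11.91, 12.17 and 11.87 in control arrays, a log2 difference of -0.37 (SE 0.15) that did not pass (limma, adjusted p = 0.142). Keap1, its inhibitor, fell, with 8.23, 8.17 and 8.07 in transgenic and 8.52, 8.58 and 8.69 in control arrays (log2 difference -0.44, SE 0.08, limma, adjusted p = 0.0200). Sqstm1, the autophagy receptor p62 that can sequester KEAP1, rose by 1.00 (SE 0.13, limma, adjusted p = 0.00768). Mafg, a small MAF protein that pairs with NRF2 on DNA, rose by 0.88 (SE 0.11, limma, adjusted p = 0.00628). In all, 5 of the 10 genes of this list rose and 1 fell, 60% of them, where 18.6% of all genes passed. The median log2 difference was 0.65. Only 2 passed without control replicate 2, control replicate 3, transgenic replicate 1 or transgenic replicate 3, and in these same 4 fits Keap1 did not pass (adjusted p 0.0539 to 0.0794).

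NRF2 targets outside the glutathione and thioredoxin systems went both ways. Of 15 genes 1 rose and 4 fell, 33.3% of them, where 18.6% of all genes passed. Hmox1, the heme oxygenase, rose by 2.48 (SE 0.51, limma, adjusted p = 0.0237), with 8.08, 7.48 and 9.56 in transgenic and 6.01, 5.80 and 5.86 in control arrays. Abcc2, an apical exporter of glutathione conjugates, fell, with 9.72, 10.19 and 9.88 in transgenic and 11.60, 11.96 and 11.77 in control arrays (log2 difference -1.85, SE 0.15, limma, adjusted p = 0.00249). Ugdh, which makes UDP-glucuronic acid, fell by 0.76 on the log2 scale (limma, adjusted p = 0.0101), and Me1, a cytosolic source of NADPH, was at -0.03 (SE 0.14, limma, adjusted p = 0.914). The list's count was 1 without control replicate 2, 2 without control replicate 3 or transgenic replicate 1, and 3 without transgenic replicate 2 or 3. Hmox1 did not pass without control replicate 2, control replicate 3 or transgenic replicate 1 (adjusted p 0.0654 to 0.0905), and Ugdh did not without control replicate 2 (adjusted p = 0.0509).

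Beside the exchanger, 10 genes that supply or use cysteine and glutamate were measured. Of these, 3 rose and 2 fell, 50% of them, where 18.6% of all genes passed. The 2 fallers, Cdo1 and Mpst, use cysteine or its product. Cdo1, the dioxygenase that breaks cysteine down, fell, with 6.72, 6.55 and 6.32 in transgenic and 7.82, 7.46 and 7.61 in control arrays (log2 difference -1.10, SE 0.14, limma, adjusted p = 0.00734). Mpst, which takes sulfur from a cysteine product, fell by 0.72 on the log2 scale (limma, adjusted p = 0.0272). Glul, the glutamine synthetase, rose by 1.69 (SE 0.39, limma, adjusted p = 0.0337), and its other probe set gave 1.72. The other risers, named after their values were seen, were Cth at 0.62 and Slc1a4 at 1.25 (limma, adjusted p = 0.0358 and 0.0446). Cth had an adjusted p of 0.126 in limma without control replicate 2, and Slc1a4 of 0.150 without transgenic replicate 3. The list's count was 1 without control replicate 2 or 3 or transgenic replicate 1 or 3. In those fits Mpst did not pass (adjusted p 0.0573 to 0.0989), and Glul did not in them or without control replicate 1 (adjusted p 0.0515 to 0.112).

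Of 13 genes of glutathione breakdown, 2 rose and 1 fell, 23.1% of them and close to the 18.6% of all genes that passed. Chac1, which cleaves glutathione inside the cell, rose by 1.23 (SE 0.26, limma, adjusted p = 0.0252), with 8.59, 9.01 and 8.13 in transgenic and 7.64, 7.03 and 7.38 in control arrays. Its relative Chac2 rose by 0.68 (SE 0.12, limma, adjusted p = 0.0182). Ggt6, of the gamma-glutamyl transferase family, fell by 0.97 on the log2 scale (limma, adjusted p = 0.0186). In the fit blocked on replicate number 2 rose and 4 fell, Dpep1, Cndp2 and Lap3, peptidases named after their values were seen, joining Ggt6. No gene passed without control replicate 2 or 3, where 4 and 5 had an unadjusted p under 0.05, while 1 passed without transgenic replicate 1 or 3, 5 without transgenic replicate 2 and 6 without control replicate 1. Chac1 lost its call without control replicate 2 or 3 or transgenic replicate 1 and in the fit blocked on sex (adjusted p 0.0652 to 0.0911), Chac2 without control replicate 2 or 3 or transgenic replicate 3 (0.0533 to 0.0696), and Ggt6 in these 4 left-out fits (0.0532 to 0.0760).

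Glutathione transferases, which attach glutathione to reactive compounds, were mostly lower. Of 20 measured, 10 fell and 1 rose, 55% of them, where 18.6% of all genes passed, and the median log2 difference was -1.17. Gstm3, of the mu class, fell most, with 7.98, 9.48 and 8.83 in transgenic and 11.53, 12.27 and 12.10 in control arrays (log2 difference -3.20, SE 0.40, limma, adjusted p = 0.00677), and its other probe set gave -3.87. Mgst3, a membrane-bound transferase, read 8.72, 9.34 and 8.98 in transgenic and 9.94, 10.53 and 10.24 in control arrays (log2 difference -1.23, SE 0.21, limma, adjusted p = 0.0154). Gstp1, of the pi class, fell by 0.77 on the log2 scale (limma, adjusted p = 0.0171). The riser was Gstm5, named after its value was seen, at 0.75. Transferases of a class are close in sequence and could share probes, so single-gene values are uncertain. Leaving out control replicate 2 or 3 left 1 passing, and leaving out transgenic replicate 1 or 3 left 2. Gstp1 lost its call in those 4 fits (adjusted p 0.0529 to 0.0728) and Mgst3 without control replicate 2 or 3 or transgenic replicate 3 (0.0578 to 0.0682).

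**Figure D4:**
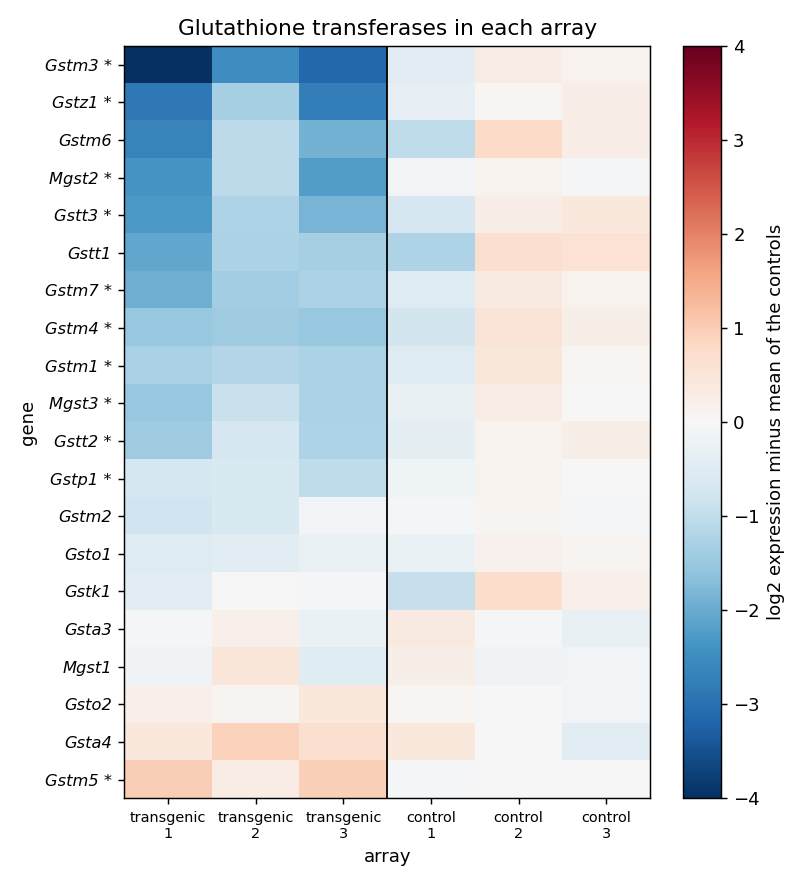
Log2 expression of the 20 measured glutathione transferases (rows, asterisk: adjusted p under 0.05 in limma) in each array (columns), minus the mean of the 3 controls, on a colour scale where blue is lower and red higher. Gstm3, at the top, is lower in all 3 transgenic arrays, and Gstm5, at the bottom, is higher.

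Markers of other cell populations were read beside the 18.6% of all genes that passed, and only the lymphocyte list lay far above that share. Fewer cells of a type cannot be told apart from less RNA per cell in such bulk samples. Of 9 T cell and intraepithelial lymphocyte markers 8 fell, and their summed linear level was 908 to 2134 in transgenic and 4838 to 7784 in control arrays. Of 12 brush border enterocyte markers 1 fell, and 8 did in the fit blocked on replicate number, their sums being 46111 to 98072 in transgenic and 73371 to 127691 in control arrays. Of 8 crypt base and cycling cell markers 2 fell, Olfm4 and Ascl2, with sums of 4347 to 5784 in transgenic and 10532 to 13070 in control arrays. Without Olfm4, left out after its values were seen, the sums overlapped, at 3878 to 5191 in transgenic and 4393 to 7855 in control arrays. Of 9 myeloid markers 1 rose, S100a9, of 9 mesenchyme and vessel markers 1 fell, Vim, and of 8 epithelial markers 2 rose and 1 fell. Levels of the myeloid markers differed. The macrophage marker Adgre1 read 4.60 to 4.67 in transgenic and 4.47 to 4.76 in control arrays, within the range of absent transcripts. Csf3r and S100a8 lay partly in that range, while Cd68, Csf1r, Itgam, Cybb, Lyz2 and S100a9 read above it in every array. Cd68 read 6.81 to 7.16 in transgenic and 6.38 to 6.75 in control arrays. These single markers were named after their values were seen. None of 5 Paneth cell markers passed in limma, 1 having an unadjusted p under 0.05. The part of these populations in the differences of the redox genes was not tested.

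Of 12 other enzymes against peroxides and superoxide 2 fell and none rose, 16.7% of them and close to the 18.6% of all genes that passed. Gpx1, the most widespread glutathione peroxidase, fell, with 10.91, 10.70 and 10.81 in transgenic and 11.26, 11.47 and 11.45 in control arrays (log2 difference -0.59, SE 0.10, limma, adjusted p = 0.0134). Catalase, Cat, read 10.21, 10.85 and 10.73 in transgenic and 11.26, 12.18 and 12.44 in control arrays (log2 difference -1.36, SE 0.33, limma, adjusted p = 0.0393). The count was 0 without control replicate 2 or 3 or transgenic replicate 3, where 3, 2 and 3 had an unadjusted p under 0.05, and 1 without transgenic replicate 2. Gpx1 lost its call in those first 3 fits (adjusted p 0.0581 to 0.0624), and Cat in every left-out fit but that without control replicate 1, and in the fit blocked on sex (0.0526 to 0.133).

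In the thioredoxin and glutaredoxin list 4 of 16 rose and 2 fell, 37.5% of them, where 18.6% of all genes passed. Txn1, the cytosolic thioredoxin that Txnrd1 reduces, was at 13.97, 13.93 and 13.92 in transgenic and 13.95, 13.97 and 13.93 in control arrays, and did not pass (log2 difference -0.01, SE 0.07, limma, adjusted p = 0.960). Txnip, which inhibits thioredoxin, rose by 0.84 (SE 0.22, limma, adjusted p = 0.0456). Sesn2, a stress-induced sestrin, rose by 1.31 (SE 0.14, limma, adjusted p = 0.00477), Glrx3 rose by 0.63 (limma, adjusted p = 0.0146), and Txnrd2, the mitochondrial thioredoxin reductase, fell by 0.61 on the log2 scale (limma, adjusted p = 0.0112). Without control replicate 2 or 3 or transgenic replicate 3, 2 passed, and 3 passed without transgenic replicate 1. Txnip lost its call in the fit blocked on sex and in every left-out fit but that without transgenic replicate 2 (adjusted p 0.0654 to 0.138), Glrx3 without control replicate 2 or 3 or transgenic replicate 1 or 3 (0.0526 to 0.0660), and Txnrd2 without transgenic replicate 3 (0.0532).

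NADPH, which Gsr and Txnrd1 spend, is made by several routes. Of 14 genes in or beside these routes 1 rose and 5 fell, 42.9% of them, where 18.6% of all genes passed. Not all of these genes make NADPH themselves. Me1, the cytosolic source named above, did not pass (limma, adjusted p = 0.914). Neither did Pgd and Idh1, named after their values were seen (limma, adjusted p = 0.437 and 0.787). Me2, the mitochondrial malic enzyme, fell, with 10.10, 10.70 and 10.24 in transgenic and 11.87, 11.74 and 11.86 in control arrays (log2 difference -1.48, SE 0.16, limma, adjusted p = 0.00510). Idh2, the mitochondrial isocitrate dehydrogenase, fell by 0.94 on the log2 scale (limma, adjusted p = 0.0132). Mthfd2, of mitochondrial folate metabolism, rose by 1.83 (SE 0.40, limma, adjusted p = 0.0284). Leaving out control replicate 2 or 3 or transgenic replicate 3 left 1 passing, leaving out transgenic replicate 1 left 2, and 9 passed without control replicate 1. Idh2 lost its call in those first 3 fits (adjusted p 0.0551 to 0.0618), and Mthfd2 in them, without transgenic replicate 1 and in the fit blocked on sex (0.0566 to 0.108).

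Of 11 genes of NADPH oxidases and their partners 1 rose and 3 fell, 36.4% of them, where 18.6% of all genes passed. The fallers were the partners Noxo1, Noxa1 and Cyba. The oxidases themselves, Nox1, Nox4, Duox1, Duox2 and Cybb, did not pass (limma, adjusted p 0.152 to 0.890). Noxa1 and these oxidases were named after their values were seen. Noxo1, the organiser of the NOX1 oxidase, read 7.35, 7.80 and 7.14 in transgenic and 8.68, 9.26 and 9.26 in control arrays (log2 difference -1.64, SE 0.23, limma, adjusted p = 0.00912). Cyba, the p22phox subunit, fell by 1.16 on the log2 scale (limma, adjusted p = 0.00672), and the GTPase Rac1 rose by 0.66 (SE 0.15, limma, adjusted p = 0.0299). Only 2 passed without control replicate 2 or 3 or transgenic replicate 2 or 3. Rac1 passed in none of the left-out fits except that without control replicate 1, nor in the fit blocked on sex (adjusted p 0.0622 to 0.111).

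In the list of lipid peroxidation and iron genes of ferroptosis, the form of cell death that Gpx4 and cystine uptake oppose, 2 of 14 rose and none fell, close to the share over all genes. Besides Hmox1 the riser was Gch1, which starts the synthesis of the lipid-protecting tetrahydrobiopterin, with 7.83, 8.05 and 8.03 in transgenic and 6.18, 7.09 and 7.02 in control arrays (log2 difference 1.21, SE 0.25, limma, adjusted p = 0.0249). No gene of this list passed without control replicate 2, control replicate 3 or transgenic replicate 1, where 2, 3 and 3 had an unadjusted p under 0.05, 1 passed without transgenic replicate 2 or 3, and 4 without control replicate 1. Gch1 lost its call in each left-out fit but the last, and in the fit blocked on sex (adjusted p 0.0515 to 0.0960).

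Gpx2, Gpx4 and Txnrd1 carry selenocysteine. Of 10 genes that make or insert this amino acid or handle its selenium, 2 rose and 5 fell, 70% of them, where 18.6% of all genes passed. The 2 risers, named after their values were seen, were Lrp8 at 1.61 and Secisbp2 at 0.62 (limma, adjusted p = 0.0145 and 0.00915). Sephs2, which makes the selenium donor, fell, with 9.03, 9.29 and 9.10 in transgenic and 10.13, 10.25 and 10.28 in control arrays (log2 difference -1.08, SE 0.10, limma, adjusted p = 0.00307). Scly, which recovers selenium from selenocysteine, read 7.46, 7.499 and 7.72 in transgenic and 8.58, 8.46 and 8.46 in control arrays (log2 difference -0.94, SE 0.10, limma, adjusted p = 0.00448). Pstk, the kinase that primes the selenocysteine transfer RNA, fell by 0.69 on the log2 scale (limma, adjusted p = 0.00735). Sephs2, Scly, Pstk and Secisbp2 passed with every array left out, and the list's count was 4 without control replicate 3.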

How the data were processed

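RNA of 6 samples was hybridised to 1 Affymetrix Gene ST array each, and precision is limited by this number. The authors deposited log2 values of every probe set for each array, and the submitters' processing notes name Partek and RMA without a version or setting. RMA corrects background, equalises arrays and summarises probes, which takes out any overall change in RNA amount. No genome build is named in the sources used here. The scale was read from the values, which are not centred per gene.

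Of 28350 probe sets, 21780 named 1 gene in GEO's platform annotation, 1618 several and 4952 none. Symbols were updated through gene identifiers with RefSeq (GRCm38.p6), which matched 21689. Each of 19933 genes was represented by its brightest probe set on average among those naming 1 gene.

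A linear model per gene with group as its single term was fitted in limma 3.58.1 (R 4.3.3), with two-sided moderated tests from eBayes, p-values adjusted by Benjamini-Hochberg across every gene, called under 0.05. The fit was tested on simulated data. Log2 differences are transgenic minus control. The labels call the samples biological replicates. Sex was read from Xist and Y-linked genes, control replicates 1 and 3 and transgenic replicate 3 being female.

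The labels number replicates 1 to 3 in each group. Deviations from the group means correlated by 0.52, 0.41 and 0.13 for arrays numbered 1, 2 and 3, all over 0.1. The numbers were therefore treated as pairs in an alternative fit, while the main fit ignores them. No label says what a number shares, and control replicate 3 correlated more with transgenic replicate 2 (0.32). Blocked values stand beside some of the results they change, and not beside every list. Among the transferases, for example, the fit with this block had 13 fallers and 1 riser, against 10 and 1 without it.

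The 10 genes and the lists were chosen with earlier results of these data known. From each list the 3 genes with the lowest p among those past the threshold were named, besides Slc3a2, Nfe2l2, Keap1, Txn1, Txnip, Gpx1, Ggt1, Chac1, Hmox1, Me1 and G6pdx regardless of their values, of which Ggt1 and G6pdx were not analysed here. Msi1 and Msi2 were named to check the labels, and the 5 genes with the highest correlation with Slc7a11 for likeness. Alternatives tried were a block for the replicate number, averaging the probe sets of a gene, a filter on means above 6, renewed quantile normalization, an intensity trend, array weights, sex as a block and leaving out each array.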

Additional observations from a re-analysis of the deposited data

How the results depend on the processing

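The log2 differences of the 10 genes moved by less than 1 SD between replicates under each of the 13 alternatives, and their median ranged from 0.22 to 0.40 with 1 array left out. For the lists, counts of genes past the threshold were recomputed. With array weights 7072 of all genes, 5 of the 10, 8 of glutathione breakdown and 5 of ferroptosis passed. With sex as a block 2159 of all genes passed, as did 3 NRF2 targets, 2 genes of cysteine supply, 1 peroxidase gene, 3 of NADPH supply, 2 oxidase genes and 1 of ferroptosis. In the fit with a replicate block 6 genes of glutathione breakdown passed, where Dpep1 had an adjusted p of 0.00618, and 8 brush border markers. No other count of a redox list moved by over 1.5 times there, and among the genes named by rule this block changed only the call of Gpx4. Keap1 did not pass with an intensity trend (adjusted p = 0.0530), and Mpst did not with sex as a block (0.0684). With 1 array left out, the counts ranged from 952 to 5542 for all genes and from 2 to 6 for the 10. They ranged from 2 to 7 for NRF2 and its regulators, from 1 to 7 for NRF2 targets and from 1 to 6 for cysteine supply. The ranges were 0 to 6 for glutathione breakdown, 1 to 14 for transferases, 0 to 3 for peroxidases, 2 to 7 for thioredoxin, 1 to 9 for NADPH, 2 to 4 for oxidases, 0 to 4 for ferroptosis and 4 to 7 for selenoprotein synthesis. A fit without 1 array holds fewer samples, so a lost call need not mean a smaller difference. Background flags of the probes were not used, which limits what can be said of dim genes.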

Other observations

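Some values lay outside the lists' named genes and were picked after they were seen. Nnt, the mitochondrial enzyme that couples the proton gradient to NADPH, was lower, with 7.12, 8.20 and 6.95 in transgenic and 8.57, 10.28 and 10.27 in control arrays (log2 difference -2.28, SE 0.56, limma, adjusted p = 0.0392, and 0.137 without transgenic replicate 3). Control replicate 1 departed from the mean of the other controls by -1.71 for Nnt, and the source of this spread was not tested. Lrp8, a receptor for selenoprotein P, rose by 1.61 (SE 0.27, limma, adjusted p = 0.0145, and 0.0635 without control replicate 2), with 9.24, 8.95 and 8.72 in transgenic and 7.93, 7.14 and 7.001 in control arrays. Slc7a9 and Slc3a1, which form the cystine carrier of the brush border, were at -1.29 and -0.83 and did not pass in limma (adjusted p = 0.117 and 0.398), but did in the fit blocked on replicate number (adjusted p = 0.00896 and 0.0365). Slc7a9 read 9.19, 10.79 and 9.92 in transgenic and 10.53, 11.66 and 11.58 in control arrays, and its groups overlapped.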
